A study of Mus musculus with 4 samples.

Results

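Neutrophils without an interferon signature made up 1708 of the 15181 cells kept from the lungs of Lmna-KO and WT mice. They were chosen by raw counts of unique molecular identifiers (UMIs, each standing for 1 captured RNA molecule). A cell had to have at least 200 genes and at most 10% mitochondrial UMIs, S100a8 and S100a9 together had to hold at least 1% of its UMIs, and at least 3 of the 6 genes Retnlg, Csf3r, G0s2, Mmp9, Il1r2 and Cxcr2 had to be detected. Cells with any UMI of the B cell gene Cd79a or the T cell gene Cd3e were left out. A gated cell with at least 3 of the 5 genes Rsad2, Ifit1, Ifit3, Isg15 and Slfn4 was set aside as an interferon-signature neutrophil, of which there were 206. The gate left 391 neutrophils in library Lmna-KO 1 and 410 in Lmna-KO 2, against 412 in WT 1 and 495 in WT 2.

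The study asked how loss of A-type lamins alters transcription in lung immune cells. Live leukocytes bearing the CD45.2 antigen were sorted from the lungs of 10-week-old mice of strain C57BL/6J and run on the 10x Chromium 3′ v3 platform, with 2 libraries per genotype. The Lmna-KO mice were Lmna-flox/flox Vav1-cre+/-, and the WT mice were Lmna-flox/flox Vav1-cre-/-, so both groups carried the floxed allele and only the Lmna-KO mice carried Cre. Vav1-cre acts across blood cell lineages, so neutrophils were not its only target, and an effect of Cre itself cannot be told apart from an effect of Lmna loss. The sex of the mice was not given in the labels used here.

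Neutrophils are short-lived granulocytes that leave the bone marrow with preformed granules. Genes of primary granules (Mpo, Elane) are transcribed in early precursors, those of secondary granules (Ltf, Camp, Ngp) in later ones and those of gelatinase granules (Mmp9, Mmp8) near maturity, whereas tissue neutrophils transcribe inflammatory genes such as Il1b, Ptgs2 and Cxcl2. The lung holds a large pool of them in its capillaries, and their lobed nuclei carry B-type lamins and the lamin B receptor with little lamin A.

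Genes that the gate did not use marked the cells as mature neutrophils. Hdc, which encodes histidine decarboxylase, was detected in 96.5% of the neutrophils, against 12.6% of classical monocytes (831 Ly6c2+ Ccr2+ cells) and 3.02% of B cells (3512 cells). Trem1, a receptor that amplifies inflammatory signals, was detected in 89.3% of neutrophils, 24.9% of monocytes and 2.79% of B cells. The B cell shares serve as a gauge of free RNA, since these cells should not express such genes, and median depth was 2214 UMIs in neutrophils, 10240 in monocytes and 3807 in B cells. Even the gate gene S100a8 had a UMI in 10.7% of B cells. Hdc differed little among libraries, at 2549 and 2958 scaled CPM in Lmna-KO, against 2889 and 2623 in WT. Scaled CPM (counts per 1000000) are a gene's UMIs summed over the neutrophils of a library, relative to the library's neutrophil total after trimmed mean of M-values (TMM) scaling, and raw CPM are the same without that scaling. Each comparison below has its own scaling. Mpo and Elane (neutrophil elastase) had no UMI in 1708 cells, which allows a share of up to 0.176% of cells with a UMI. Ly6g, the gene of the antigen used to sort mouse neutrophils, was sparse, with a UMI in 8.26% of neutrophils and 0.142% of B cells. The eosinophil genes Epx and Prg2 were at 0.

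**Figure D1:**
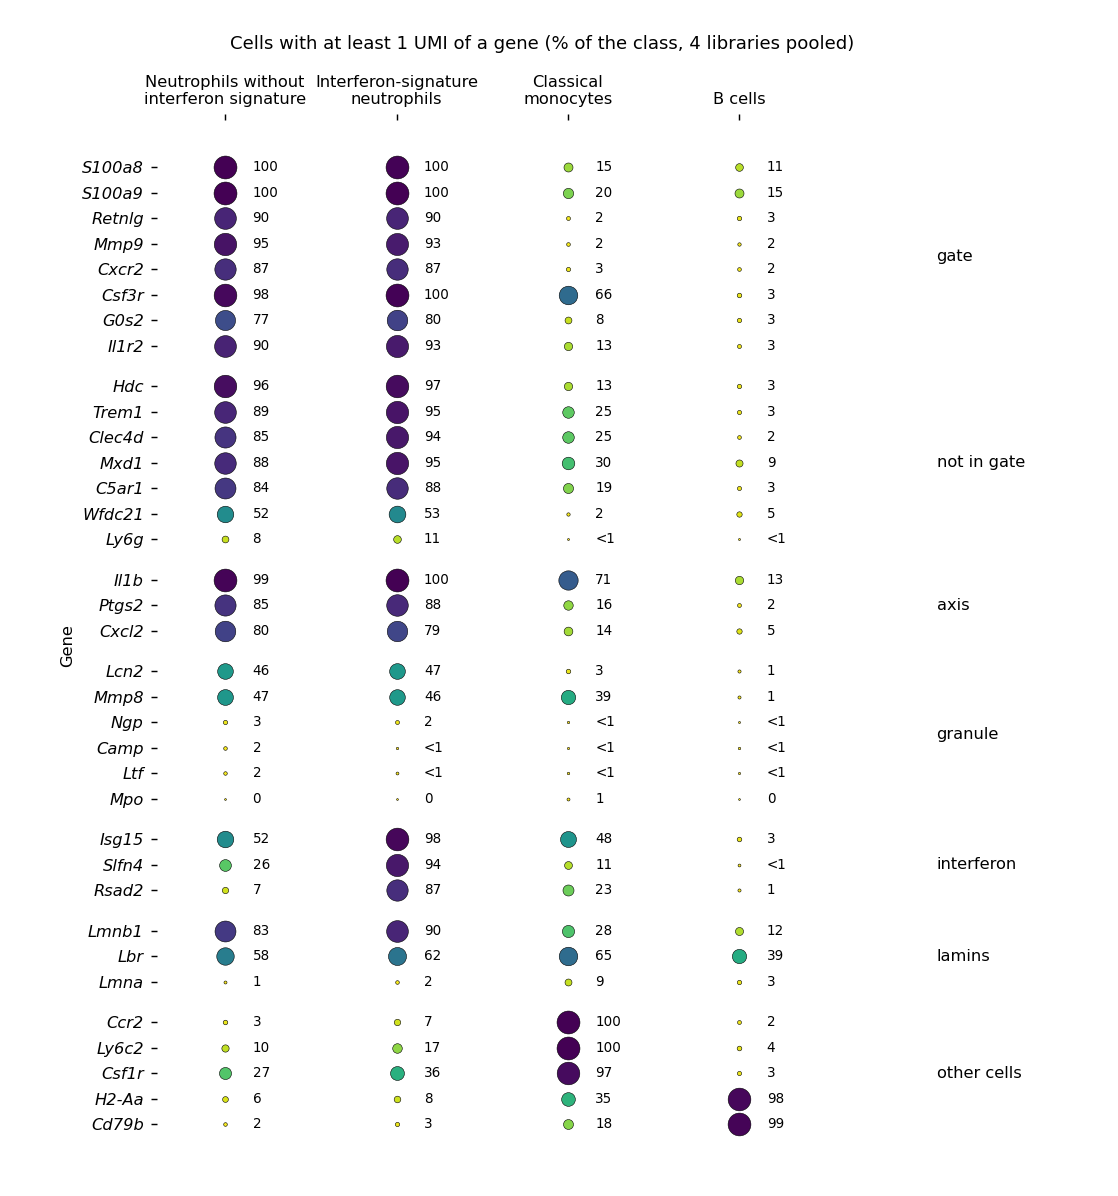
Share of cells (%) with at least 1 UMI of each gene, in neutrophils without an interferon signature, interferon-signature neutrophils, classical monocytes and B cells, with the 4 libraries pooled and dot area and colour scaling with the share. Hdc reaches 96.5% in the neutrophils and 12.6% in monocytes, Lmnb1 83.4% and 27.9%, and Mpo has no UMI in neutrophils.

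The libraries held 21780914 and 21849805 UMIs in Lmna-KO, against 26433722 and 27045250 in WT, and the neutrophils supplied 984718 and 1042221 in Lmna-KO and 1203234 and 1403278 in WT. Median UMIs per neutrophil were 2079 and 2147 in Lmna-KO libraries, against 2350.5 and 2259 in WT libraries, with no overlap (exact two-sided permutation p = 0.333). Between 2 and 2 libraries 0.333 is the smallest p possible, so single values per library cannot pass a threshold of 0.05 in this design. No neutrophil barcode occurred in more than 1 library, against 27 barcodes among all cells. Other lineages left traces. Genes of a classical monocyte list summed to 762 and 468 scaled CPM in Lmna-KO, against 881 and 877 in WT, and those of a dendritic cell list to 832 and 364 in Lmna-KO, against 733 and 1424 in WT. In WT 2, 9006 of the neutrophils' 9171 UMIs of the airway secretory gene Scgb1a1 came from 1 barcode. The 111 neutrophils above 5000 UMIs carried most of the other traces, with 2392 raw CPM on the monocyte list and 3120 on the dendritic list, against 254 and 177 in the rest. Values without these 111 cells are given beside the results they change most.

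The S100a8 plus S100a9 edge and the marker edge of the gate held few cells, whereas the interferon edge held many. Of the neutrophils, 112 (6.56%) had an S100a8 plus S100a9 share of 1 to 2% of UMIs, with 1443 raw CPM of Csf3r (the G-CSF receptor), 1815 of Hdc and 1039 of Retnlg. The 57 cells just outside, with a share of 0.5 to 1%, had 1297 of Csf3r, 1526 of Hdc and 501.5 of Retnlg. Exactly 3 marker genes were detected in 44 neutrophils, and 8 cells outside had exactly 2. Of the 5 interferon genes, 563 neutrophils had none, 807 had 1 and 338 (19.8%) had 2, while 128 of the 206 interferon-signature cells had exactly 3. A further 141 cells met every condition but the absence of Cd79a and Cd3e, and their median of 5754 UMIs was well above that of the neutrophils.

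Lmna, the floxed gene, was checked first. Over all kept cells it had 14.3 and 15.3 raw CPM in Lmna-KO libraries, against 75 and 55.4 in WT libraries, in the direction the labels give. In neutrophils Lmna was close to absent in both genotypes, with 5 and 5 UMIs in Lmna-KO and 18 and 11 in WT, or 4.99 and 5.18 scaled CPM in Lmna-KO against 14.4 and 8.20 in WT. Only 1.11% of neutrophils had an Lmna UMI, against 8.66% of monocytes and 3.08% of B cells, which were deeper cells. Relative to totals, Lmna in neutrophils and monocytes overlapped. It had 6.12 and 6.48 scaled CPM in Lmna-KO and 17.5 and 9.99 in WT neutrophils, against 5.65, 12.1, 21.0 and 13.4 in monocytes. The difference did not pass (log2 fold change -0.37, edgeR adjusted p = 0.263). The neutrophil counts were too low for a test between genotypes. A 3′ tag can also lie outside the deleted exons, which the labels do not name. The B-type lamin gene Lmnb1 was detected in 83.4% of neutrophils, with 908 and 1136 scaled CPM in Lmna-KO libraries and 791 and 889 in WT libraries. The groups did not overlap, but the difference did not pass the test (log2 fold change 0.28, edgeR adjusted p = 0.881). Lbr, the lamin B receptor needed for nuclear lobulation, stood at 330 and 365 in Lmna-KO and 336 and 365 in WT. Lmnb2 had a UMI in 0.351% of neutrophils.

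The share of neutrophils among kept cells overlapped between the genotypes. Neutrophils were 10.4% (exact 95% binomial interval 9.42 to 11.4) and 11.4% (10.4 to 12.5) of cells in Lmna-KO libraries, against 10.5% (9.52 to 11.5) and 12.8% (11.7 to 13.8) in WT libraries. The means were 10.9% ± 0.738 in Lmna-KO and 11.6% ± 1.63 in WT (SD, n = 2 each), and the ranges overlapped (exact permutation p = 0.667). The direction rests on WT 2, without which the log2 ratio of Lmna-KO over WT was 0.06, against -0.0911 with it. Interferon-signature cells were 16.1% (12.9 to 19.8) and 12.8% (9.88 to 16.1) of gated neutrophils in Lmna-KO, against 8.24% (5.87 to 11.2) and 6.43% (4.49 to 8.87) in WT. Both Lmna-KO libraries lay above both WT libraries, with means of 14.4% ± 2.35 and 7.33% ± 1.28 (SD, n = 2 each) and the smallest p the design allows (exact permutation p = 0.333). A lower cut, at 2 or more of the 5 genes, also took in the interferon-signature cells. It held 36.05% and 29.15% of gated neutrophils in Lmna-KO, against 27.39% and 21.93% in WT, without overlap. Among the neutrophils without the signature alone the genotypes overlapped. Exactly 2 of the 5 genes were found in 23.8% and 18.8% of them in Lmna-KO, against 20.9% and 16.6% in WT. Shares of cells with a UMI depend on depth, which differed between the genotypes as given above, and its part in these shares was not tested.

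Within the neutrophils, cells were ordered along an axis that runs from Retnlg and Mmp9 to Il1b, Ptgs2 and Cxcl2. Il1b encodes the pyrogenic cytokine interleukin-1β, Ptgs2 the inducible cyclooxygenase and Cxcl2 a neutrophil-attracting chemokine. Retnlg encodes a resistin-like protein of mouse neutrophils, and Mmp9 a gelatinase stored in granules. A cell's score was the mean log2(1 + UMIs per 10000) of the first 3 genes minus that of Retnlg and Mmp9. The neutrophils of each library were split by score into 3 equal groups, of which the highest is called the Il1b end and the lowest the Retnlg end, with 130 and 136 cells per end in Lmna-KO libraries and 137 and 165 in WT libraries. The score is a continuous range, not a cell type: 316 cells (18.5%) lay within 0.25 of a cut drawn on the pooled cells. Depth differed little between the ends, with median UMIs of 2104 and 2108 in Lmna-KO and 2261 and 2069 in WT at the Il1b end, against 2034, 2266, 2482 and 2299 at the Retnlg end.

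The score genes moved along the axis as the score forces them to, and not all to the same extent. Ptgs2 had 3883 and 4331 raw CPM in Lmna-KO and 5574 and 4752 in WT at the Il1b end, against 1724, 1336, 1792 and 1207 at the Retnlg end. Cxcl2 had 9376 and 12710 in Lmna-KO and 8829 and 13180 in WT at the Il1b end, against 2326, 2902, 1729 and 2926 at the Retnlg end. Il1b moved less, with 28450, 28890, 25320 and 27820 at the Il1b end, against 21740, 18960, 14650 and 17570 at the Retnlg end. At the other pole Retnlg had 2370, 3741, 1045 and 1872 at the Il1b end, against 13950, 19700, 7193 and 13090 at the Retnlg end. Mmp9 at the Il1b end stood at 0.585 times its Retnlg-end level. Across cells within a library, Il1b and Ptgs2 were positively related (Spearman rho 0.29 to 0.38 over the 4 libraries of 391 to 495 cells), and so did Il1b and Cxcl2 (0.16 to 0.32). Retnlg and Mmp9 were weakly related (0.11 to 0.18), Il1b and Mmp9 hardly at all (-0.075 to 0.052). These are descriptions over cells that share a library and a total, so no p is attached. Of the neutrophil gate genes outside the score, Csf3r stood at 1.16 and Cxcr2 (the receptor for Cxcl2) at 0.923 times the Retnlg-end level. Il1r2 stood at 1.27 and G0s2 at 1.44 times that level, and the G0s2 ends did not overlap across libraries. S100a8 and S100a9, whose protein complex fills the neutrophil cytosol, stood at 0.455 and 0.446 times their Retnlg-end levels.

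**Figure D2:**
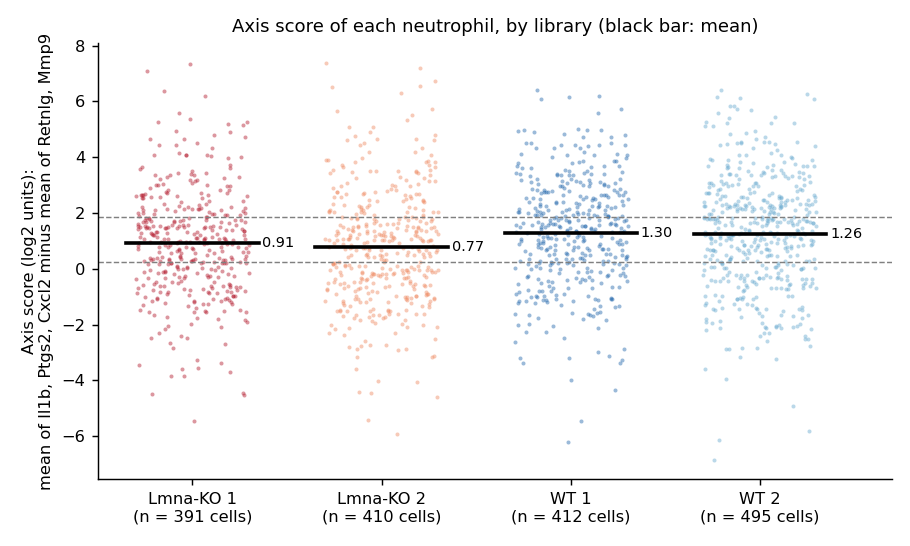
Axis score of each neutrophil (score units, log2 scale) in libraries Lmna-KO 1, Lmna-KO 2, WT 1 and WT 2, with bars at the library means and dashed lines at the cuts that split the pooled cells into 3 equal groups. The means are 0.909 and 0.765 in Lmna-KO and 1.30 and 1.26 in WT, small distances beside the spread of cells within a library.

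Both Lmna-KO libraries had lower mean scores than both WT libraries. The mean was 0.909 and 0.765 in Lmna-KO libraries, against 1.30 and 1.26 in WT libraries, a difference of -0.44 between means of 0.837 ± 0.102 and 1.28 ± 0.0255 (SD, n = 2 each; exact permutation p = 0.333, the smallest possible). When the pooled neutrophils were split into 3 equal groups, the highest held 27.4% (exact 95% interval 23 to 32.1) and 26.6% (22.4 to 31.1) of neutrophils in Lmna-KO, against 39.6% (34.8 to 44.5) and 38.4% (34.1 to 42.8) in WT. Thinning every cell to 1406 UMIs, which left out 171 shallower cells, gave means of 0.954 and 0.709 in Lmna-KO and 1.39 and 1.31 in WT. On the scale of the score, the mean log level per cell, Retnlg was the 1 score gene of 5 whose libraries did not overlap between genotypes. Its mean log level was 5.26 and 5.44 in Lmna-KO libraries, against 4.17 and 4.85 in WT libraries, without overlap, while the joint level of Il1b, Ptgs2 and Cxcl2 was 5.56 and 5.34 in Lmna-KO and 5.43 and 5.62 in WT, which overlapped. Mmp9 overlapped too, at 4.05 and 3.71 in Lmna-KO against 4.1 and 3.87 in WT. In UMIs summed over cells, Il1b did not overlap either and was higher in Lmna-KO, as given below with the genotype test. Within a library the scores had SDs of 1.95 to 2.09, several times the distance between genotypes.

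Outside the score and the gate, 171 of 3585 genes tested (4.77%) differed between the ends over the 4 libraries, with 87 (2.43%) higher and 84 (2.34%) lower at the Il1b end. The test was edgeR's quasi-likelihood test on UMIs summed per library and end, with library as a block and Benjamini-Hochberg adjustment over all genes. Cells were placed with UMIs of the same libraries, so genes that share a cell's total with the score genes are not fully independent of the score. Without Lmna-KO 2 the count was 89 and without WT 2 it was 104. The genes higher at the Il1b end were led by Il23a, which encodes the specific subunit of interleukin-23. Il23a had 115 and 75 scaled CPM in Lmna-KO and 102 and 65.6 in WT at the Il1b end, against 9.98, 6.39, 9.36 and 2.32 at the Retnlg end (log2 fold change 3.64 ± 0.34 SE, adjusted p = 1.15e-06). Every library showed it, with no overlap between the ends. Icam1, an adhesion molecule induced on activated cells, had 115, 116, 95.8 and 119 at the Il1b end, against 16.6, 9.59, 51.5 and 27.8 at the Retnlg end (2.01, adjusted p = 0.00157). Cd274, which encodes the checkpoint ligand PD-L1, had 126, 109, 138 and 95.9 against 73.2, 35.2, 28.1 and 30.1 (1.55, adjusted p = 0.000515). In both genes the lowest library at the Il1b end stood above the highest at the Retnlg end.

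Genes of a list of NF-kB feedback, known targets of this transcription factor that include its inhibitors, some of its own subunits and other induced genes, were higher at the Il1b end in part. Of 12 tested members 9 rose toward the Il1b end and none fell, and the median log2 fold change of the list was 0.77, beside 0.0095 over all genes tested. Nfkbia, which encodes the inhibitor IκBα, had 2879, 2641, 2525 and 2951 scaled CPM at the Il1b end, against 1558, 1026, 1039 and 1036 at the Retnlg end (1.26 ± 0.11 SE, adjusted p = 1.15e-06). Tnfaip3, which encodes the ubiquitin-editing enzyme A20, had 647, 763, 764 and 784 against 286, 224, 339 and 250 (adjusted p = 1.15e-06). Both genes were separated in all 4 libraries. Nfkbie, Nfkbiz, Nfkbid, Ier3, Zc3h12a, Tnfaip2 and the NF-kB subunit gene Rel were the other members called. Ccrl2, which encodes a chemerin-binding receptor of activated neutrophils, had 1777, 1325, 2111 and 1947 at the Il1b end, against 1002, 515, 788 and 639 at the Retnlg end (adjusted p = 1.15e-06). Among genes outside the score and the gate detected in at least 10% of neutrophils, those whose level followed the score most closely from cell to cell were Dusp1, Pim1, Nfkbia, Zfp36, Ppp1r15a, Tnfaip3, Ccrl2 and Plek, with mean Spearman rho of 0.311, 0.297, 0.29, 0.288, 0.281, 0.263, 0.26 and 0.256 over the 4 libraries.

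The 250 bases before the RefSeq start of some of these genes are printed to show where the letters of the NF-kB consensus site, in capitals, fall (RefSeq, GRCm38.p6; 5′ to 3′ on the gene's strand; matches searched on both strands). Cxcl2 (chr5:90903649-90903898, plus strand) held 2 overlapping matches beginning 97 and 96 bases before the start. Nfkbia (chr12:55492648-55492897, minus strand) held 1 and Tnfaip3 (chr10:19015411-19015660, minus strand, 1 of 2 RefSeq starts) held 2 sites, 1 of which matched on both strands. Ccrl2 (chr9:111057519-111057768, minus strand, 1 of 3 RefSeq starts) held 1 site matching on both strands. The other starts of Tnfaip3 and Ccrl2 had no match. Il1b (chr2:129371140-129371389, minus strand) and Retnlg (chr16:48872358-48872607, plus strand) had no match in this window and are printed for contrast. Ptgs2, Icam1 and Cd274, all higher at the Il1b end, had no match either and are not printed.
Cxcl2: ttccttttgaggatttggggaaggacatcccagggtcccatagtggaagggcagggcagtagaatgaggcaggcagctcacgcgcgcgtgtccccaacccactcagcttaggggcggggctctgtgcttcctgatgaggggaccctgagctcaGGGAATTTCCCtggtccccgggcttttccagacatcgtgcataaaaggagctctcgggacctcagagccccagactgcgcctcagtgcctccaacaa
Nfkbia: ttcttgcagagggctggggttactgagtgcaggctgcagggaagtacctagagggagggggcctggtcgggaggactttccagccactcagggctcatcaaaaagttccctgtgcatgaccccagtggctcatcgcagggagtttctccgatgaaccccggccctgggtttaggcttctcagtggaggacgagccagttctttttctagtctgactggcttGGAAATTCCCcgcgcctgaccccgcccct
Tnfaip3: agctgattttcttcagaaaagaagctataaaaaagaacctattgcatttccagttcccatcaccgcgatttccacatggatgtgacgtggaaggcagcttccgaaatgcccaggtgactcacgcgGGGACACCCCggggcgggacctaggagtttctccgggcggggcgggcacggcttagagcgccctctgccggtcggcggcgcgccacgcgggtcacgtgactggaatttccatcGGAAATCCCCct
Ccrl2: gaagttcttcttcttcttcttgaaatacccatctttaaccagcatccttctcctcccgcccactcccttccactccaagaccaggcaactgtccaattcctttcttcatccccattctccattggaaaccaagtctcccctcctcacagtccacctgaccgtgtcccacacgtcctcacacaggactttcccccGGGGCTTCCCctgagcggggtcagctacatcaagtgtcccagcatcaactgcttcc
Il1b: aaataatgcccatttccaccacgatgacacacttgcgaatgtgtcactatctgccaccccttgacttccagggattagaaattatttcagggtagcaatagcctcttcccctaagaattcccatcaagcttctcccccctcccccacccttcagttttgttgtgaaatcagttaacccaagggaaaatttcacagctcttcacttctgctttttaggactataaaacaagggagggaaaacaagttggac
Retnlg: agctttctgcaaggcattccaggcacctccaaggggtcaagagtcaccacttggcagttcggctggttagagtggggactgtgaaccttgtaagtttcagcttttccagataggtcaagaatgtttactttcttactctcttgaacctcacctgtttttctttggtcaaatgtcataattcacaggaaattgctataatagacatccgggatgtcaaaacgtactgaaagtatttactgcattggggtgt

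Such a match is a description of letters and not a site of binding. It occurred upstream of 8.23% of the 27025 genes with a RefSeq promoter and of 11.3% of the 2863 genes tested along the axis that had one. Of the genes higher at the Il1b end 15 of 66 with a promoter held a match (22.7%), and of those lower there 8 of 70 did (11.4%). Of the NF-kB feedback list 8 of 10 did, but this list was drawn up from known NF-kB targets, so its share tests nothing. Its 9 members called higher at the Il1b end are also among the 87 genes higher there. Both shares therefore rest in part on the same genes, and the share without them was not determined.

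Other inflammatory groups moved with Il1b in part. Of 21 immediate early genes, which respond to stimuli without new protein synthesis, 7 rose toward the Il1b end and none fell, among them Dusp1 and Dusp2 (phosphatases that switch off MAP kinases), Zfp36 (an RNA-decay factor for cytokine messages) and Nr4a1. Their log2 fold changes were 0.56, 1.91, 0.84 and 0.79. Of 6 members of the interleukin-1 list Il1rn and Nlrp3 rose. Il1rn, the secreted interleukin-1 receptor antagonist, had 831 and 1103 scaled CPM in Lmna-KO and 716 and 621 in WT at the Il1b end, against 466, 483, 456 and 394 at the Retnlg end (0.83). Nlrp3, the inflammasome sensor, rose by 0.61. Csf1, the growth factor of macrophages, was the member of 9 chemokine and cytokine genes that rose, with 460, 528, 581 and 343 against 176, 169, 173 and 199 (1.38, adjusted p = 1.65e-05). Ccl6, a chemokine of myeloid cells, was the member that fell (-0.43), a call lost without Lmna-KO 1, Lmna-KO 2 or WT 2 (adjusted p = 0.0699, 0.0776 and 0.183). Of 11 survival genes 3 rose, including the anti-apoptotic Bcl2a1b (1.38) and the pro-apoptotic Pmaip1 (0.96). The Pmaip1 call was lost without WT 2 (adjusted p = 0.0547).

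A list of genes reported as high in aged or Siglec-F+ neutrophils had 5 of 12 members higher at the Il1b end and none lower, with a median of 0.43. Besides Icam1 and Cd274 these were Cd14 (a lipopolysaccharide co-receptor, 0.86), Cxcr4 and Itgax. Cxcr4, the receptor that guides aged neutrophils back to bone marrow, had 1677, 2147, 1800 and 1710 at the Il1b end, against 1667, 1291, 1118 and 1184 at the Retnlg end (0.49, adjusted p = 0.0164). The distance was smallest in Lmna-KO 1, and the call was lost without Lmna-KO 2, WT 1 or WT 2 (adjusted p = 0.165, 0.0947 and 0.0748). Itgax, which encodes the integrin CD11c, was called (0.80) only with all libraries present, with adjusted p of 0.0753 to 0.248 when any of the 4 was left out. Siglecf itself had a UMI in 4.04% of neutrophils. No member of the interferon-stimulated list (14 tested, median 0.13) or of the NADPH oxidase list (6 tested) was called in either direction by edgeR, with 5 and 1 at an unadjusted p under 0.05 and 1 and 0 called by DESeq2. Lmnb1 (0.14, adjusted p = 0.623) and Lbr (-0.30, adjusted p = 0.237) did not pass.

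**Figure D3:**
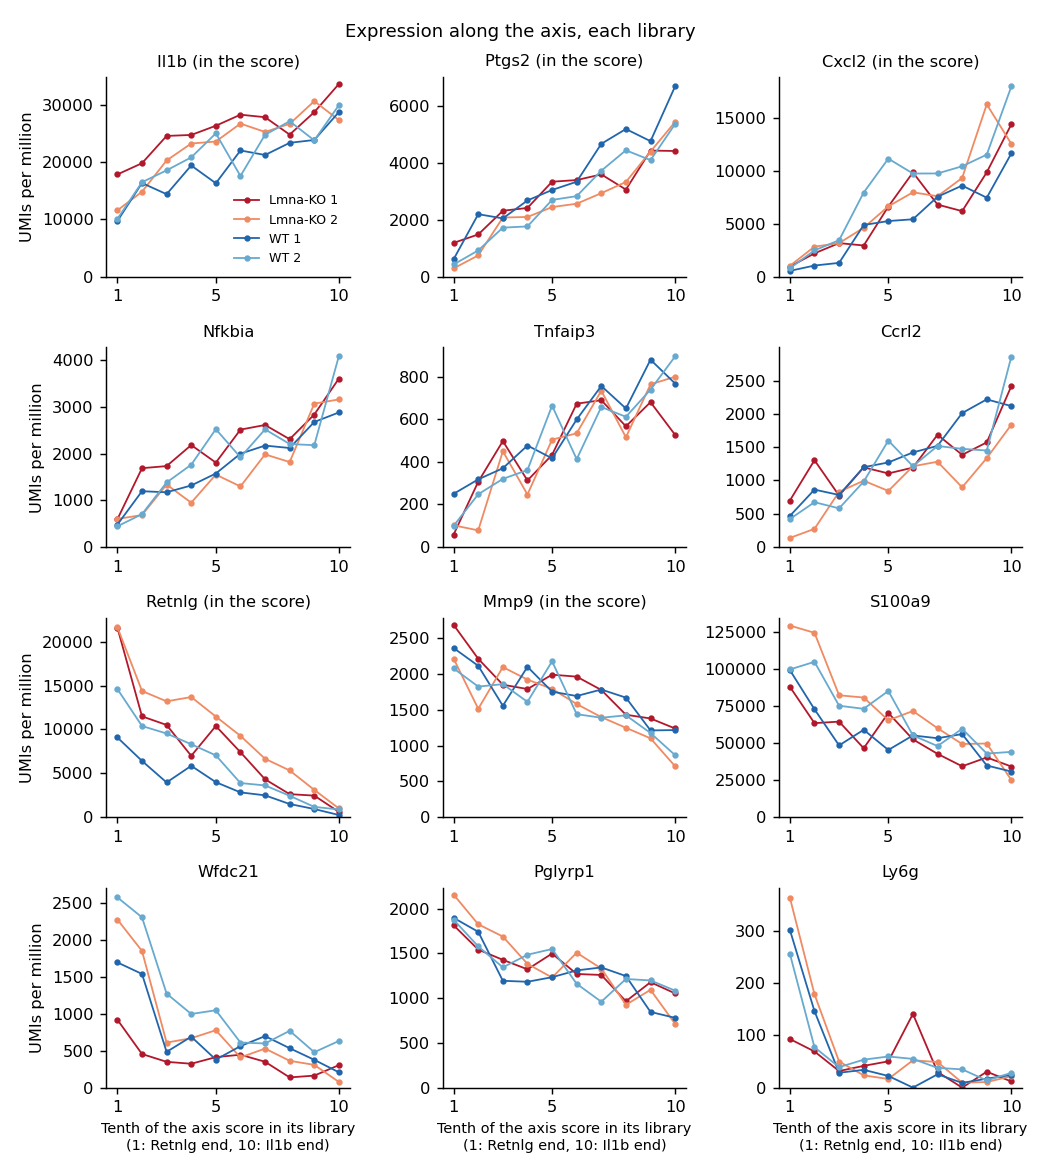
Raw CPM of 12 genes in 10 equal groups of cells by axis score, from the Retnlg pole (1) to the Il1b pole (10), with 1 line per library. Nfkbia, Tnfaip3 and Ccrl2, which the score did not use, climb in all 4 libraries, while Wfdc21, Pglyrp1 and Ly6g decline.

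Some genes of granules and of neutrophil identity fell toward the Il1b end. Of 19 neutrophil identity genes outside the gate 5 fell (Ly6g, Wfdc21, Pglyrp1, Stfa2l1 and Cd177) and 1, the lectin receptor gene Clec4e, rose. Ly6g had 11.5 and 25 scaled CPM in Lmna-KO and 21.0 and 30.3 in WT at the Il1b end, against 59.9, 230, 164 and 139 at the Retnlg end (-2.69, adjusted p = 1.15e-06). Wfdc21, a whey acidic protein family member, had 213, 316, 398 and 636 against 549, 1876, 1261 and 2226 (-1.86, adjusted p = 5.96e-05). Both genes were lower at the Il1b end in every library, although Wfdc21 ranges overlapped across libraries. Cd177, a surface protein of a subset of neutrophils, had 40.3, 56.3, 0 and 15.1 against 83.2, 326, 46.8 and 90.4 (-2.27, adjusted p = 0.00141). Pglyrp1, a bactericidal peptidoglycan-recognition protein, had 1073, 997, 982 and 1188 against 1644, 2237, 1673 and 1853 (-0.80, adjusted p = 0.000111). The collagenase gene Mmp8 had 256, 213, 303 and 262 against 509, 1183, 770 and 971 (-1.68, adjusted p = 0.00848). The glycolytic genes Slc2a3 (-0.55) and Gapdh (-0.56) were the 2 of 14 hypoxia and glycolysis genes that fell, both lost when single libraries were left out (adjusted p = 0.0658 to 0.092). Lcn2, the siderophore-binding protein of secondary granules, fell short of the threshold (-2.39, adjusted p = 0.217).

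A few cells held nearly all Ltf, Camp and Ngp UMIs. Ltf (lactoferrin), Camp (cathelicidin) and Ngp (neutrophilic granule protein) mark late precursors, and 26 neutrophils with at least 3 UMIs of these genes together held 99.3% of the Ltf, 99.8% of the Camp and 99.6% of the Ngp UMIs of all neutrophils. There were 3 and 9 such cells in Lmna-KO libraries, against 6 and 8 in WT libraries. The sums were split: 12 of the cells had 451 to 3070 granule UMIs, all other neutrophils had at most 75, and the highest cell of Lmna-KO 1 had 13. Of other secondary granule genes, which did not choose the cells, they held 49.1% of Lcn2, 61.7% of Chil3, 48.3% of Cd177 and 25% of Cybb UMIs. They held 45.3% of Ly6g, 46.1% of Cebpe (a transcription factor of granule formation), 28.4% of Wfdc21 and 9.43% of Retnlg. Relative to totals Retnlg too was higher in them, at 14380 raw CPM against 6608 in the other neutrophils. Wfdc21 had 5089 against 612. Il1b stood at 2180 raw CPM in them, against 22640 in the other neutrophils, and Cxcr2 at 274 against 1010. Their median score was -2.61 against 1.14, and 24 of the 26 lay in the lowest of the 3 pooled score groups. They were deeper cells, with a median of 7033 UMIs against 2206, and none was marked as a doublet. Mki67, a proliferation marker, had a UMI in 2 of the 26. Without the 26 cells 125 genes differed along the axis, 117 of them among the 171. Ly6g (-1.41, adjusted p = 0.0091) and Wfdc21 (-1.11) still fell, while Cd177 (-0.76, adjusted p = 0.33) was no longer called.

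**Figure D4:**
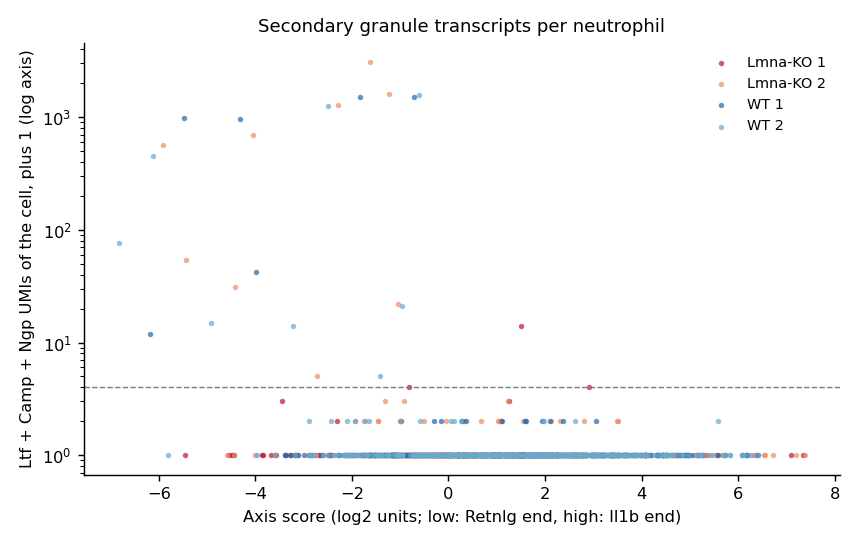
Ltf, Camp and Ngp UMIs per neutrophil plus 1 (log axis) against the axis score, with 1 colour per library and a dashed line at the limit of 3 UMIs. The 26 granule-rich cells lie mostly at low scores, and the 12 richest stand apart with 451 to 3070 UMIs.

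The cells over 5000 UMIs also bore on the axis. Without them 284 genes were called, 149 of them among the 171, and Ly6g fell by 1.34 on the log2 scale. Ly6c2, a monocyte and precursor antigen gene, was lower at the Il1b end with all cells (-1.47) but not without these (-0.39, adjusted p = 0.486), and Gadd45b, a stress-response gene, lost its call (adjusted p = 0.154).

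Between genotypes 26 of 6217 genes tested in neutrophils (0.418%) differed, 7 higher (0.113%) and 19 lower (0.306%) in Lmna-KO than in WT by edgeR's quasi-likelihood test on UMIs summed per library. At an unadjusted p under 0.05 there were 410 (6.59%). Each library left out gave more calls, 139 without Lmna-KO 1, 93 without Lmna-KO 2, 57 without WT 1 and 76 without WT 2, so the number is unstable at 2 libraries per group. Without the cells over 5000 UMIs there were 36 calls, of which 15 were among the 26. Of the other 11, Ccr2 and F13a1 were then too low to test, and Bola2, Snrpg, Atp5k, Tmsb10, Rpl35, Rpl36, Polr2l, Cish and Gm12840 were not called. Commd10, of a family that sorts receptors at endosomes, showed the clearest rise, with 57.8 and 61.1 scaled CPM in Lmna-KO against 4 and 3.73 in WT (3.91 ± 0.37 SE, adjusted p = 3.31e-05). A Commd10 UMI was found in 13% and 13.2% of Lmna-KO neutrophils, against 1.21% and 1.01% of WT neutrophils. Socs3, which restrains signalling of the G-CSF and interleukin-6 receptors, had 469 and 419 in Lmna-KO against 147 and 225 in WT (1.25 ± 0.20 SE, adjusted p = 0.0102). It was the 1 of 21 immediate early genes called, and it passed in 12 of 16 alternatives. Ifi27, an interferon-inducible gene, had 113 and 109 in Lmna-KO against 45.6 and 56.7 in WT (1.11, adjusted p = 0.0191), a call lost without WT 1 (adjusted p = 0.0874). Rhoh, a GTPase-deficient signalling protein of blood cells, had 92.7 and 107 in Lmna-KO against 47.2 and 46.2 in WT (1.09, adjusted p = 0.0225). Borcs5, a subunit of a complex that positions lysosomes, had 28.9 and 28.0 in Lmna-KO against 6.40 and 5.96 in WT (2.18, adjusted p = 0.0192). The libraries did not overlap in Borcs5 either. For Commd10, Socs3, Ifi27 and Rhoh the lack of overlap was part of the naming rule and is no further evidence.

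**Figure D5:**
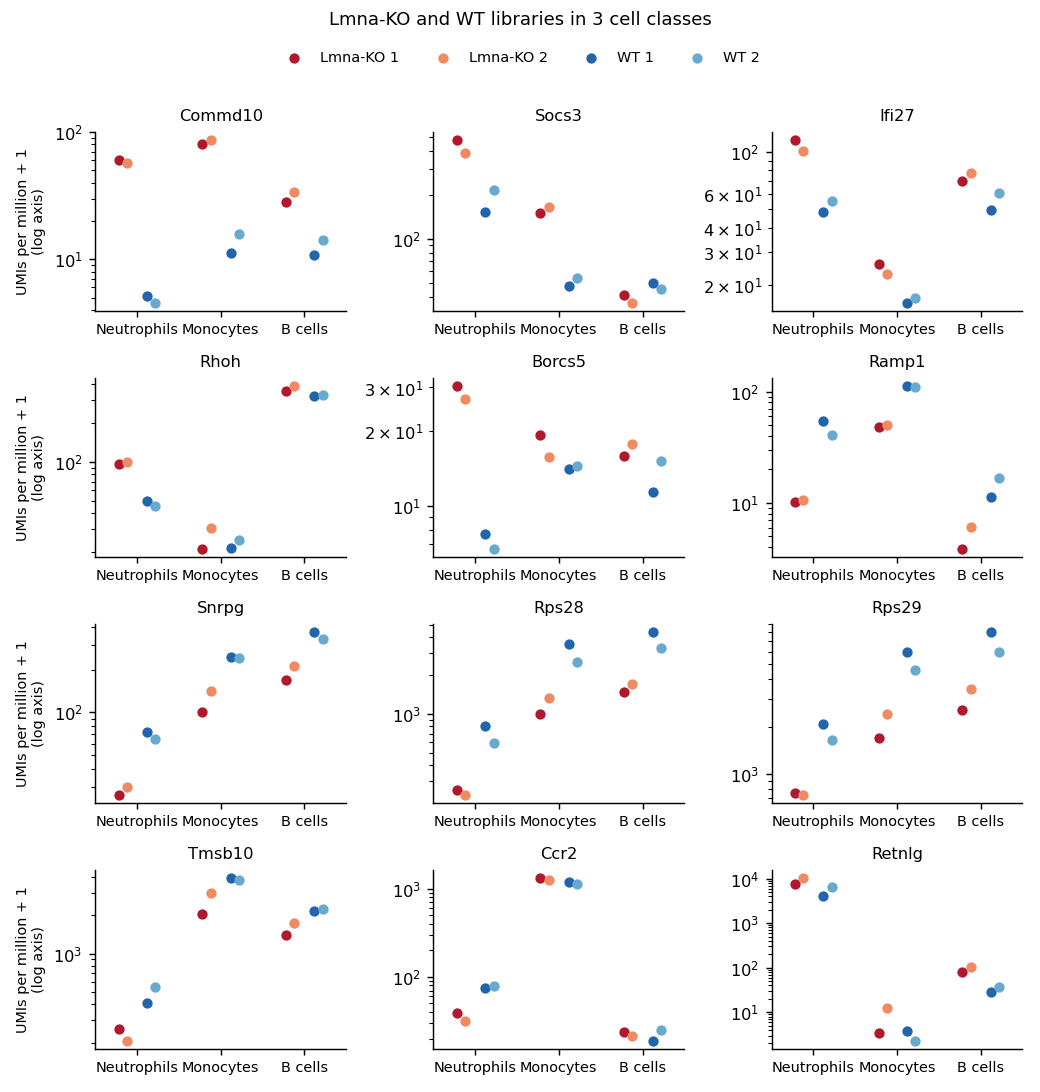
CPM plus 1 (log axis) of 12 genes in each library, in neutrophils, classical monocytes and B cells, with Lmna-KO points left of WT points. In neutrophils Commd10, Socs3, Ifi27, Rhoh and Borcs5 are higher and Ramp1, Snrpg and Rps28 lower in both Lmna-KO libraries than in both WT libraries, and the Retnlg points show no overlap although the gene did not pass the test.

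Of the 19 genes that fell in Lmna-KO neutrophils 7 encoded ribosomal proteins. Of 86 ribosomal protein genes 7 fell and none rose (median of the 86, -0.15). Among them Rps28 (-1.47), Rps29 (-1.27) and Rps21 (-1.05), chosen after their values were seen, were called in 15 of 16 alternatives each. Ribosomal protein genes have many near-identical copies in the genome, so counting may split their reads. Whether such splitting bears on the genotype difference was not tested. The Sm protein gene Snrpg had 24.9 and 31.1 scaled CPM in Lmna-KO against 69.6 and 67.1 in WT, and the ATP synthase subunit gene Atp5k 39.9 and 52.8 in Lmna-KO against 106 and 93.2 in WT. Tmsb10, an actin-sequestering thymosin, had 253 and 224 in Lmna-KO against 393 and 567 in WT (-1.01, adjusted p = 0.022). Without the cells over 5000 UMIs these 3 were not called (adjusted p = 0.504 for Snrpg, 0.0993 for Atp5k and 0.693 for Tmsb10), and Tmsb10 was also lost without WT 2 (adjusted p = 0.115), Atp5k without WT 1 (adjusted p = 0.0762). Ramp1, a subunit of the receptor for the neuropeptide CGRP, was chosen after its values were seen. It had 8.97 and 10.4 in Lmna-KO against 51.2 and 41.7 in WT (-2.25), with a UMI in 1.79% and 1.95% of Lmna-KO neutrophils against 10.7% and 9.5% of WT neutrophils.

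Some of these genes are better known from other cells. The monocyte chemokine receptor gene Ccr2 had 36.9 and 33.2 in Lmna-KO neutrophils against 71.2 and 82.0 in WT neutrophils (-1.13, adjusted p = 0.0416), lost without WT 2 (adjusted p = 0.154). With the S100a8 plus S100a9 minimum raised to 5% its log2 fold change turned to 0.48. F13a1, a coagulation factor gene of monocytes, also fell (-2.34), and these were the 2 of 7 classical monocyte genes called. The classical monocyte list summed lower in both Lmna-KO libraries than in both WT libraries, as given above, and its part in these calls was not tested. In monocytes themselves Ccr2 stood at 1316 and 1253 raw CPM in Lmna-KO and 1192 and 1110 in WT.

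The same libraries gave like directions in other cells. In monocytes 7 of the 7 higher genes and 18 of the 19 lower genes had Lmna-KO means on the same side, and in B cells 6 and 17. All classes come from the same libraries, so these are not independent replicates. How often all genes tested took the same direction was not determined, so the counts do not set the called genes apart. Commd10 had 79.8 and 85.9 raw CPM in Lmna-KO monocytes against 10.3 and 14.7 in WT monocytes, and 27.2 and 32.8 in Lmna-KO B cells against 9.74 and 13.1 in WT B cells. Rps28 had 1004 and 1322 in Lmna-KO monocytes against 3507 and 2557 in WT monocytes. Socs3 was higher in Lmna-KO monocytes, at 150 and 165 against 46.1 and 53.3 in WT, but lower in Lmna-KO B cells, at 40.3 and 35.5 against 48.9 and 44.1 in WT.

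The genes that define neutrophils and their axis did not pass the genotype test. Retnlg had 7456 and 11190 scaled CPM in Lmna-KO neutrophils against 3882 and 6801 in WT neutrophils, without overlap (0.80, adjusted p = 0.843). Il1b had 25210 and 24390 in Lmna-KO against 18120 and 21690 in WT (0.32, adjusted p = 0.733), Ptgs2 had 2915 and 2713 against 3172 and 2775, and Cxcl2 had 6122 and 7450 against 4734 and 8443. Both Lmna-KO libraries were above both WT libraries for Il1b and inside or around the WT range for Cxcl2. Just short of the threshold were Ier3, a survival gene of the NF-kB list, with 572 and 1017 in Lmna-KO against 311 and 341 in WT (1.28, adjusted p = 0.0851), the interferon-inducible Rtp4, with 200 and 171 in Lmna-KO against 96.0 and 123 in WT (0.76, adjusted p = 0.0876), and the protease gene Ctsc, with 49.9 and 29.0 in Lmna-KO against 83.2 and 79.0 in WT (-1.03, adjusted p = 0.0936). None of 27 interferon-stimulated genes tested was called by edgeR or by DESeq2, 4 had an unadjusted p under 0.05, and their median log2 fold change was 0.16, beside -0.0062 over all genes. Isg15, a gate gene given as a description, had 647 and 568 in Lmna-KO against 469 and 439 in WT.

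Whether the axis itself differed between genotypes was tested as an interaction. For the typical gene this test used a spread shared over genes, not the gene's own spread between libraries, so its p-values may be too small. Of 4198 genes 44 (1.05%) were called, and 343 (8.17%) at an unadjusted p under 0.05. Of the calls 39 (0.929%) had a larger and 5 (0.119%) a smaller Il1b-end over Retnlg-end ratio in Lmna-KO than in WT. The count was 15 without Lmna-KO 2, 6 without WT 1, 4 without WT 2 and 5 without the cells over 5000 UMIs, of which 3 were among the 44. The largest differences were in MHC class II genes of antigen-presenting cells. H2-Aa had 222 and 98.4 scaled CPM in Lmna-KO and 23.5 and 220 in WT at the Il1b end, against 32.5, 15.8, 197 and 455 at the Retnlg end. H2-Aa was detected in 5.80% of neutrophils and 98.1% of B cells. Of the 10 genes on the dendritic cell list only 3 could be tested, and 2 of them, H2-Aa and H2-Ab1, were called. Among neutrophil genes Vegfa, the endothelial growth factor, had 104 and 101 in Lmna-KO and 73.3 and 59.3 in WT at the Il1b end, against 26.0, 28.5, 86.2 and 77.3 at the Retnlg end. It was higher at the Il1b end in both Lmna-KO libraries and lower there in both WT libraries (difference of log2 fold changes 2.21, adjusted p = 0.00383). Vegfa held without the cells over 5000 UMIs (2.32, adjusted p = 0.0068), but not when any 1 library was left out (adjusted p = 0.0888 to 0.4). Dusp16, a phosphatase acting on stress kinases, went the other way, with 219 and 240 in Lmna-KO and 167 and 270 in WT at the Il1b end against 169, 247, 49.9 and 97.8 at the Retnlg end (-1.42, adjusted p = 0.00254, and -1.57 without the cells over 5000 UMIs). It was lost without Lmna-KO 2, WT 1 or WT 2 (adjusted p = 0.332, 0.527 and 0.376).

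Set against classical monocytes, the nearest other phagocytes in these libraries, 5653 of 7952 genes (71.1%) differed, 2733 (34.4%) higher and 2920 (36.7%) lower in neutrophils, and 73% had an unadjusted p under 0.05, so a call alone says little about a gene. Neutrophils were shallower, and the 26 granule-rich cells put Ngp and Ltf among the largest folds (log2 11.90 and 10.11). Of 20 neutrophil identity genes 18 were higher, as were 8 of 8 gelatinase granule genes and 7 of 8 chemotactic receptor genes, with C5ar1 (the complement C5a receptor, 5.49) and Fpr1 (a formyl peptide receptor, 5.74) among them. Il1b had 30930 and 30520 scaled CPM in Lmna-KO neutrophils and 22070 and 26420 in WT neutrophils, against 941, 1197, 662 and 989 in monocytes (4.88). Ptgs2 (6.63) and Cxcl2 (7.26) were higher as well. Of 19 hypoxia and glycolysis genes 12 were higher and none lower, including the glucose transporter gene Slc2a3 (6.97). The cystine transporter gene Slc7a11 (6.01) and the arginase gene Arg2 (6.90) were also higher.

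The nuclear lamina differed between these cells. Lmnb1 had 1114 and 1422 scaled CPM in Lmna-KO neutrophils and 963 and 1082 in WT neutrophils, against 36.2, 36.7, 26.1 and 27.5 in monocytes (5.18). Lbr had 405, 456, 409 and 445 in neutrophils against 109, 81.2, 108 and 94.4 in monocytes (2.13). No neutrophil library came near a monocyte library for either gene. Lmna did not pass in this comparison, as given above. Lower in neutrophils were lysosomal genes, with 15 of 20 lower and 4 higher (median -1.09, beside -0.071 over all genes). Cybb, the catalytic subunit of the phagocyte NADPH oxidase, had 314, 421, 543 and 437 in neutrophils against 1367, 1477, 1487 and 1375 in monocytes. Cd209a, a lectin gene of monocytes and dendritic cells, had the most negative of the named folds (-4.64).

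Against interferon-signature neutrophils, which met the same gate but for the interferon genes, 116 of 4809 genes (2.41%) differed, 9 (0.187%) higher and 107 (2.22%) lower in neutrophils without the signature. Interferon-stimulated genes on the list were kept out of the test, yet most of the named lower genes were of that kind. Ifi204, a DNA sensor gene, had 45.6 and 39.9 scaled CPM in Lmna-KO and 46.0 and 54.2 in WT neutrophils without the signature, against 162, 195, 308 and 315 in those with it (-2.37). Bst2, which encodes the virus-tethering protein tetherin, had 31.1, 14.7, 20.9 and 29.4 against 73.1, 97.7, 283 and 190 (-2.68). Cxcl10, a chemokine for T cells, stood at -2.49, the immunity GTPase gene Irgm1 at -1.97 and the Fc receptor gene Fcgr1 at -2.66, the last lost without WT 1 (adjusted p = 0.0798) or WT 2 (adjusted p = 0.109).

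Some lysosomal genes were lower without the signature. Monocyte genes moved with them, with 3 of 7 on the classical monocyte list lower (Ccr2, F13a1 and Ctss, the last on both lists). A Ccr2 UMI was found in 3.40% of neutrophils without and 7.28% of those with the signature, and the part of monocyte genes in the result was not tested. Of 20 tested lysosomal genes 5 were lower in neutrophils without it and none was higher, with a median of -0.43. Ctss, a cysteine protease gene, had 314, 161, 342 and 280 in neutrophils without the signature against 577, 431, 989 and 957 in those with it (-1.40), and was called in 15 of 15 alternatives. Npc2, Grn (-1.18), Ctsb (-0.85) and Ctsc (-1.38) were lower too, although Grn was lost without the cells over 5000 UMIs (adjusted p = 0.233), Ctsb was lost without WT 2 (adjusted p = 0.0953) and stood at 0.15 without cells carrying UMIs of other lineages, and Ctsc without WT 1 or WT 2 (adjusted p = 0.113 and 0.18). Of genes higher without the signature, Alox5, which starts leukotriene synthesis, had 146, 170, 150 and 124 against 92.4, 132, 41.0 and 59.4 (0.91), lost without WT 1 or WT 2 (adjusted p = 0.223 and 0.281) or without the cells over 5000 UMIs (adjusted p = 0.538). The cytotoxic lymphocyte genes Gzma and Ccl5 were also higher and were lost without WT 2 (adjusted p = 0.128 and 0.0818). The count of calls ranged widely, at 248 without Lmna-KO 1, 182 without Lmna-KO 2, 51 without WT 1 and 25 without WT 2, and 50 without the cells over 5000 UMIs, 30 of them among the 116. The axis genes did not pass, with Il1b at 0.41 (adjusted p = 0.208), Ptgs2 at 0.50 (adjusted p = 0.205) and Cxcl2 at 0.14.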

How the data were processed

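The deposited matrices hold UMI counts for 31053 features and every barcode of a library, 16528 in all, each with at least 500 UMIs. Per the labels' protocols, about 9600 cells were processed with the Chromium 3′ v3 kit and sequenced to 25000 reads per cell. Cell Ranger 3.0.2, Seurat 3.0.0 and mm10 come from the submitters' processing notes, and the strand setting and annotation are not given in the sources used here. The 71 features with a repeated symbol were kept apart by their identifiers. Tags come from the 3′ end, so levels were not divided by gene length and are not compared between genes.

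Cells were gated as described, summed per library and class, and tested with edgeR 4.0.16 in R 4.3.3 (TMM, filterByExpr, robust quasi-likelihood fit, Benjamini-Hochberg adjustment, threshold 0.05). Genes of the score or gate got no test where they defined the groups compared. DESeq2 1.42.0 was an alternative. Python 3.11.15, numpy 2.4.6, scipy 1.17.1, pandas 2.3.3, scikit-learn 1.9.0 and matplotlib 3.10.9 did the rest. The labels tie the cells to 2 mice per genotype but no library to a mouse, so p-values measure the spread between these libraries. The interaction test differs, since its fit took the spread of the typical gene wholly from a trend over all genes. Replicate libraries differed by more than sampling noise (chi-square divided by its degrees of freedom 7.35 in Lmna-KO and 5.87 in WT). Binomial intervals cover counting error only. Doublets were scored against simulated ones at 0.8% per 1000 cells. The caller marked 5, 10, 4 and 5 neutrophils in Lmna-KO 1, Lmna-KO 2, WT 1 and WT 2, which were kept.

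The members, gene lists and tests were chosen with earlier results of these data known. Genes were named by rule: the 10 highest and 10 lowest called log2 fold changes with a mean of at least 50 UMIs per 1000000 in the higher group and no overlap (blocked fits: the same sign in all 4 libraries), the 5 smallest p where fewer than 5 passed in a direction, the gate and axis genes, Lmna, Lmnb1, Lmnb2, Lbr and Ly6g, and up to 4 genes by p from each list. Other names, chosen after their values were seen, are Ramp1, F13a1, the ribosomal protein genes and the further members listed by name. On data simulated from these libraries, the genotype test recovered 34% of changes of 1 on the log2 scale and 91.7% of those of 2 (5995 genes), and the axis test 88.4% and 98.9% (3446 genes). The settings that leave out cells over 5000 UMIs or granule-rich cells were chosen after seeing the data.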

Additional observations from a re-analysis of the deposited data

Results flagged for a closer look

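For 13 genes the difference between the Il1b end and the Retnlg end was called as differing between Lmna-KO and WT neutrophils, by edgeR's test of the interaction (44 of 4198 genes, 1.05%, by the same test). DESeq2 called 2 of the 44, and edgeR's p-values may be too small here, as given above. The differences of log2 fold changes, Lmna-KO minus WT, were 4.25 for H2-Aa, 3.72 for H2-Eb1 and 3.53 for H2-Ab1, the MHC class II genes. H2-Ab1 had 174 and 73.8 scaled CPM in Lmna-KO and 14.7 and 166 in WT at the Il1b end, against 39 and 34.8 in Lmna-KO and 163 and 432 in WT at the Retnlg end. Without the cells over 5000 UMIs H2-Ab1 stood at -0.68 and H2-Aa and H2-Eb1 were too low to test. Irf8, a transcription factor of myeloid and B lineages, differed by 2.84, the scavenger receptor gene Lrp1 by 2.61, the LIM domain gene Crip1 by 2.25 and the myeloid gene Plac8 by 1.83, and Plac8 stood at -0.98 without the cells over 5000 UMIs.

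Vegfa differed by 2.21, Hint1 by 1.81 and Hsp90b1, an endoplasmic reticulum chaperone, by 1.62. Smaller Il1b-end ratios in Lmna-KO were found for Dusp16 (-1.42), the neutrophil protease gene Asprv1 (-1.08) and the sialyltransferase gene St3gal6 (-0.987). The sizes were unsteady with 1 library left out. They ranged from -1.28 to -0.808 for Asprv1, -1.41 to -0.591 for St3gal6 and 2.09 to 6.52 for Lrp1. Hint1 ranged from 1.52 to 2.18 and Hsp90b1 from 1.11 to 2.17. Asprv1 had 129 and 188 in Lmna-KO and 176 and 381 in WT at the Il1b end, against 296, 421, 225 and 357 at the Retnlg end. Of these 13 genes Vegfa and Dusp16 passed without the cells over 5000 UMIs (adjusted p = 0.0068 each).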

How the results depend on the processing

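The direction of the mean axis score and of the interferon-signature share was the same in every alternative run (-0.521 to -0.362 for the score difference, 0.403 to 1.17 for the log2 ratio of shares), whereas the log2 ratio of neutrophil shares ranged from -0.228 to 0.0597 with 1 library left out, reversing without WT 2. The genotype count of 26 was 98 with no filter on low counts, 16 at most 5% mitochondrial UMIs, 8 at an S100a8 plus S100a9 minimum of 5%, 13 without scored doublets, 17 without cells with UMIs of other lineages, 3 with no interferon gene detected, 45 without granule-rich cells, 36 without cells over 5000 UMIs (15 of the 26 among them) and 57 to 139 with 1 library left out. A replicate block on the library numbers gave 92, all 26 among them. Same-numbered libraries did not deviate together over all genes (correlation 0.021 over 6217 genes). That value cannot exclude a pairing that acts on some genes, and the labels do not say what the numbers mark. The axis count of 171 was 65 by DESeq2, 258 with no filter, 72 without the library block, 89 to 156 with 1 library left out, 42 with no interferon gene detected, 284 without cells over 5000 UMIs, 270 with a ratio score and 261 with thinned scores. The interaction count of 44 was 2 by DESeq2, 4 to 44 with 1 library left out, 70 at most 5% mitochondrial UMIs, 1 at the S100 minimum of 5%, 76 with 4 of 6 markers, 17 without doublets, 4 without other lineages, 0 with no interferon gene detected, 20 without granule-rich cells, 5 without cells over 5000 UMIs, 15 with the ratio score, 13 with cells in 4 score groups in place of 3 and 2 with thinned scores. Against interferon-signature neutrophils the count of 116 was 75 by DESeq2, 263 with no filter, 29 without the library block, 25 to 248 with 1 library left out, 56 at the S100 minimum of 5%, 24 without other lineages and 50 without cells over 5000 UMIs. The monocyte comparison kept within 1.5 times its count throughout. The cause was not tested for any of these, apart from fewer cells or libraries by construction.

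Some uncalled genotype changes switched sign. Mmp9 turned to -0.0269 (5% mitochondrial limit), -0.0516 (S100 minimum), -0.0474 (no other lineages), -0.115 (no interferon gene) and -0.0823 (no cells over 5000 UMIs). In the same order Cxcl2 turned to -0.0099, -0.0921, -0.0859, -0.251 and -0.142, and S100a9 turned to -0.0875, -0.0284 and -0.0969 in the last 3. With 1 library left out, Ptgs2 ranged from -0.162 to 0.0168, Cxcl2 from -0.318 to 0.53, S100a8 from -0.871 to 0.0695 and S100a9 from -0.293 to 0.373. The called Ccr2 turned to 0.475 at the S100 minimum. In the interaction H2-Ab1 (-0.675) and Plac8 (-0.977) reversed without cells over 5000 UMIs and Crip1 (-0.646) at the S100 minimum. Against interferon-signature cells Cybb (1.08) and Ctsb (0.155) reversed without other lineages and Ctsb (5.94e-05) without cells over 5000 UMIs. With 2 libraries per group, changes of 1 on the log2 scale between genotypes were recovered in 34% of simulated cases, so genes not called may still differ.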

Other observations

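Along the axis, further groups of neutrophil genes were mostly uncalled. Of 17 lysosomal genes Ctsa and Lamp1 rose toward the Il1b end and none fell. Of 10 p53 target genes Cdkn1a, a cell cycle inhibitor, and Pmaip1 rose (Cdkn1a log2 fold change 1.03). Of 7 heat shock genes the endoplasmic reticulum chaperone gene Hspa5 rose (0.66), and of 11 ferritin and oxidative response genes Txnrd1 rose and Prdx5 (-0.53) fell. Of 8 chemotactic receptor genes Ccrl2, Cxcr4 and the platelet-activating factor receptor gene Ptafr (0.69) rose, while the formyl peptide receptor gene Fpr2 (-0.58) fell. Lta4h, which completes leukotriene B4 synthesis, fell (-1.63), a call lost without Lmna-KO 2 (adjusted p = 0.0907). The Fpr2 call was lost without Lmna-KO 1 or Lmna-KO 2 (adjusted p = 0.084 and 0.0827), and the Prdx5 call without WT 2 (adjusted p = 0.0652). Ctsa, Lamp1 and Txnrd1 were each lost without at least 3 of the 4 libraries (adjusted p = 0.0535 to 0.221).

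From cell to cell, the genes most opposed to the score outside the gate were Wfdc21, Pglyrp1, Lyz2 (lysozyme), Mmp8, S100a11, Prr13, Arhgdib and Lcn2, with mean Spearman rho of -0.239, -0.217, -0.214, -0.202, -0.193, -0.191, -0.187 and -0.181 over the 4 libraries. For S100a9 and S100a8, which the gate used, it was -0.403 and -0.389.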
